A study of Mus musculus with 53 samples.

Results

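The macrophage lineage transcription factors described here are Spi1, Cebpa, Cebpb, Cebpd, Runx1, Maf, Mitf, Zeb2 and Mef2c. These 9 genes were taken by name, and 9 of 9 were found among the 23847 loci of the deposited expression tables, with Spi1 listed under its older symbol Sfpi1. Polyadenylated RNA was measured by RNA-seq in bone marrow-derived macrophages (BMDMs), bone marrow cells grown into macrophages in culture over 6 days with the supernatant of L929 cells, a source of M-CSF. Cells came from WT mice and from Stat6KO mice, a full-body knockout of the transcription factor STAT6. Both genotypes were on the C57BL/6 background, and the animals were 8 to 12 weeks old. In each genotype, cells were sampled as untreated controls at 0, 1, 3, 6 and 24 h and after 1, 3, 6 and 24 h of the cytokine IL-4 at 20 ng/ml. This gave 53 samples in 18 groups. Each WT group held 4 samples, but the WT group given IL-4 for 24 h held 3 (its replicate 1 was not analysed here), and each Stat6KO group held 2. Expression is given as FPKM, the number of sequenced fragments scaled to transcript length and to library size.

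PU.1, the product of Spi1, is an ETS factor that opens chromatin at macrophage enhancers and is needed for the myeloid lineage, and RUNX1 acts upstream of it in blood cell formation. C/EBPα, C/EBPβ and C/EBPδ are related leucine zipper factors that bind beside PU.1. C/EBPα carries progenitors into the myeloid lineage, C/EBPβ serves in activated macrophages and in emergency granulopoiesis, and C/EBPδ is known from the acute phase response. c-MAF, the product of Maf, restrains self-renewal and favours IL-10 production in macrophages, MITF works with PU.1 in osteoclasts and in lysosomal gene expression, ZEB2 is a repressor that maintains tissue macrophage identity, and MEF2C is a MADS-box factor that steers myeloid progenitors toward monocytes. IL-4 activates STAT6 and drives alternative polarization.

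Each library's FPKM added up to 385889 to 464915, and depth relative to the median library, recovered from low values, was 0.707 to 1.554. Read totals were not used here, and counting intervals are therefore left out. Stat6 lay between 58.7 and 90.6 FPKM in the 35 WT samples and between 14.3 and 24.0 FPKM in the 18 Stat6KO samples, without overlap, so the targeted transcript was lower in every knockout sample and was not absent. The cells carried macrophage markers. Apart from lysozyme (Lyz2), which was listed at 0 in 7 libraries and at 4018 FPKM or more in the rest, the other 9 macrophage markers summed to between 3117 and 5807 FPKM. With Lyz2 included, the sum in WT at 24 h was 7140 to 8710 FPKM with IL-4 and 23200 to 29200 FPKM in controls. In WT with IL-4 at 6 and at 24 h, 1 macrophage marker had a mean under 1 FPKM. Whether these differences bear on the results below was not tested. No member was listed at 0 in any sample. The lists for B cells, T and NK cells, dendritic cells, mast cells and basophils, erythroid cells, stroma and megakaryocytes summed to at most 13.9 FPKM in any sample. Of 8 neutrophil markers 7 were measured, and their sum was 226 to 631 FPKM in WT and 597 to 1090 FPKM in Stat6KO. The part of granulocytic RNA in the results below was not tested. In bulk RNA, fewer cells expressing a gene and less RNA per cell cannot be told apart.

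At rest the 9 members spanned a wide range of levels. In the WT controls at 0 h (mean ± SD, n = 4), Spi1 was the highest at 262 ± 27.0 FPKM, followed by Maf at 68.4 ± 13.5 and Zeb2 at 45.2 ± 5.30 FPKM. Cebpa stood at 31.2 ± 4.19 and Mitf at 19.5 ± 2.58 FPKM. Mef2c at 15.5 ± 2.80, Runx1 at 15.4 ± 3.23 and Cebpb at 15.2 ± 2.44 FPKM were followed by Cebpd at 3.03 ± 0.450 FPKM. FPKM is scaled to transcript length, so these levels can be compared between genes as far as the annotated transcripts are right. The annotation used is not given. The sample ranges did not overlap between Spi1 and Maf, Zeb2 and Cebpa, Cebpa and Mitf, or Cebpb and Cebpd. Those of Maf and Zeb2 overlapped, as did those of each neighbouring pair from Mitf through Mef2c and Runx1 to Cebpb, so the order within these runs lay within the replicate spread. WT replicate 1 at 0 h was the lowest of its group for Runx1 (10.7 against 16.3 to 18.1 FPKM), Maf (50.1 against 69.5 to 82.7 FPKM), Mitf, Zeb2 and Mef2c and the highest for Spi1, Cebpa, Cebpb and Cebpd.

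**Figure D1:**
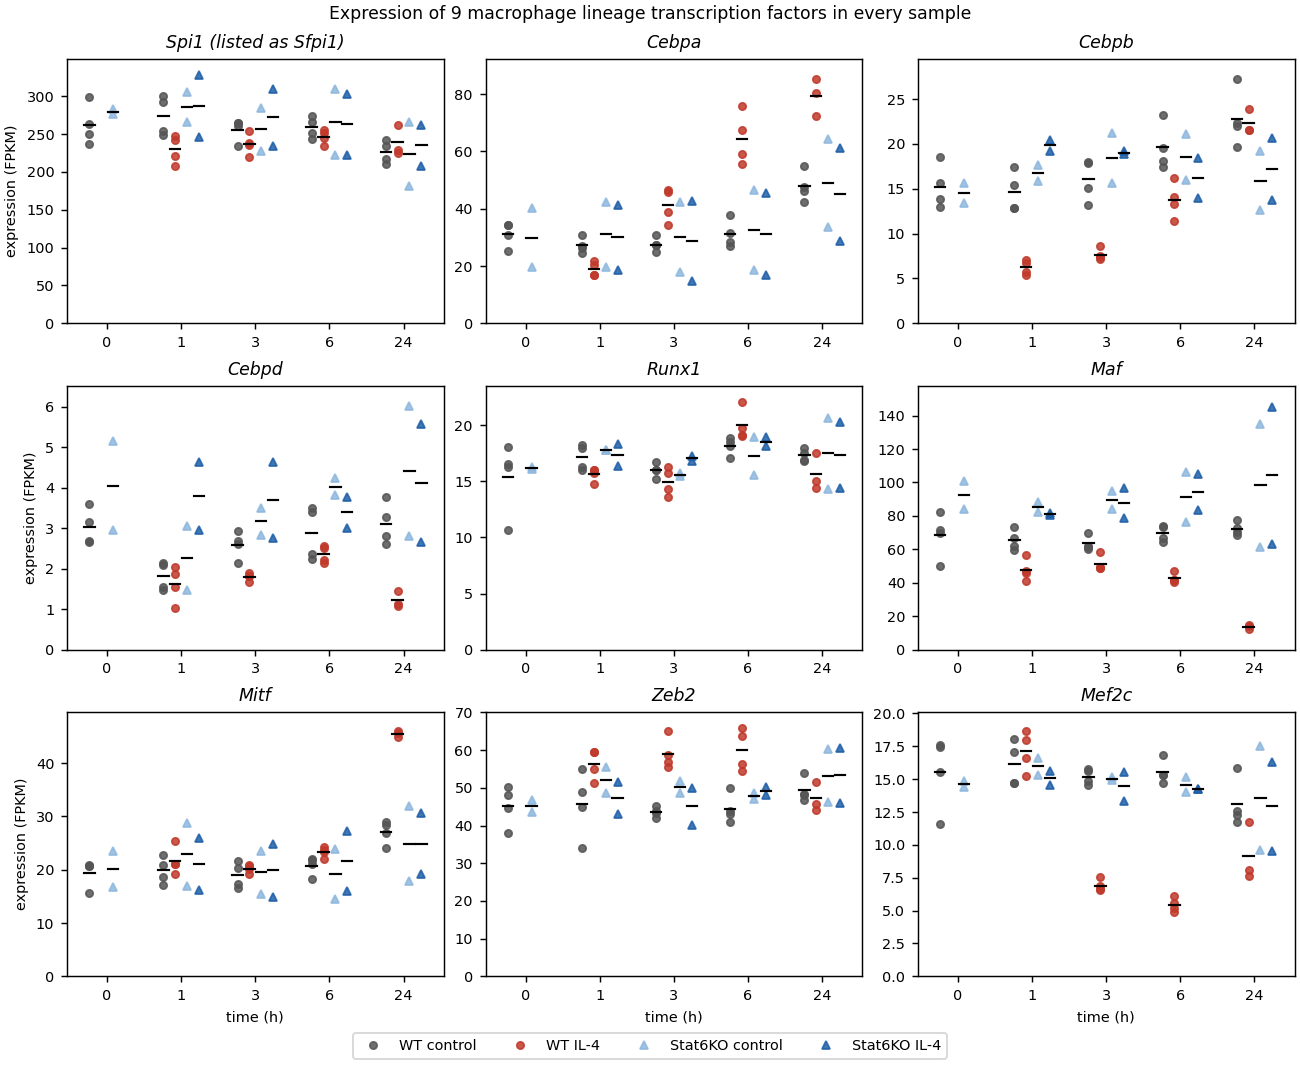
Expression (y axis, FPKM, from 0) of each member in every sample against time (x axis, h, evenly spaced), with WT as circles, Stat6KO as triangles and a black bar at the mean of each group. In WT, the IL-4 samples of Cebpb at 1 h lie between 5.36 and 7.07 FPKM below controls at 12.8 to 17.4 FPKM, those of Mef2c at 6 h between 4.89 and 6.14 FPKM, and those of Maf at 24 h between 12.6 and 14.9 FPKM, while the Stat6KO triangles with IL-4 at those times lie at 19.2 and 20.5, at 14.2 and 14.3 and at 63.4 and 145 FPKM.

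The first comparison asks what IL-4 does to these factors in WT cells. In WT BMDMs the members moved in both directions. In the fit without a replicate block, Cebpb fell at 1, 3 and 6 h, Mef2c from 3 h, Maf from 6 h and Cebpd at 24 h, whereas Zeb2 rose at 3 and 6 h, Cebpa at 6 h and Mitf at 24 h. With the block, Cebpa, Maf and Spi1 were also lower at 1 h, while Zeb2 at 1 h and Cebpa at 3 and 24 h were also higher. A gene passed at an adjusted p under 0.05 (limma on log2(FPKM + 1), 11146 loci tested, Benjamini-Hochberg adjustment), and every log2 fold change here is on that scale, where a change in a low gene comes out smaller than it is. All 9 members passed the filter of 1 FPKM in at least 1 sample.

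At 1 h of IL-4 in WT, 0 members were higher and 1 was lower, where 5.67% of all loci passed as higher and 3.72% as lower. At 3 h the counts were 1 higher and 2 lower, against 16.4% and 12.5% of loci. At 6 h they were 2 higher and 3 lower, against 22.0% and 19.2%, and at 24 h 1 higher and 3 lower, against 23.4% and 31.6%. A change of at least 2-fold on the log2(FPKM + 1) scale among those that passed was seen in 1 member at 1 h (1.49% of loci), 1 at 3 h (3.88%), 2 at 6 h (5.54%) and 1 at 24 h (8.5%). As ratios of mean FPKM, Cebpb at 3 h (0.478) and Cebpd at 24 h (0.391) were also under 0.5. The median absolute log2 fold change of the members was 0.25, 0.35, 0.42 and 0.49 at the successive times, beside 0.10, 0.15, 0.21 and 0.29 over all loci tested. With only 9 members, these counts are a description.

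**Figure D2:**
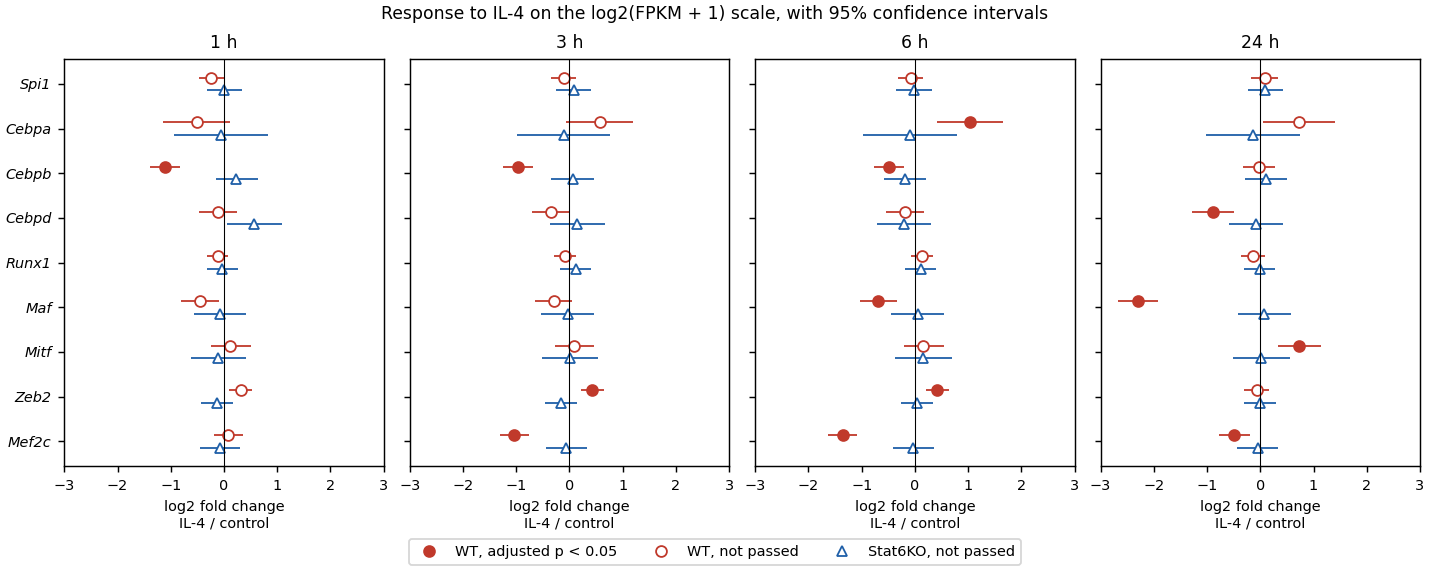
Log2 fold change of IL-4 over the time-matched control (x axis) for each member (y axis) at 1, 3, 6 and 24 h in WT (circles, filled where the adjusted p was under 0.05) and Stat6KO (triangles), with 95% confidence intervals of the limma fit as bars. Filled symbols lie to the left for Cebpb, Mef2c, Maf and Cebpd and to the right for Zeb2, Cebpa and Mitf, and all Stat6KO triangles are open.

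No IL-4 response of Spi1 or Runx1, the earliest acting of the 9, passed in WT. There, Spi1 stayed between group means of 226 and 274 FPKM, a ratio of 1.21, and Runx1 between 15.0 and 20.0 FPKM, a ratio of 1.34. The closest approach of Spi1 to a response was at 1 h, when the IL-4 samples read 242, 221, 247 and 208 FPKM and the controls 299.9, 292, 254 and 248 FPKM. The 4 IL-4 samples lay below the 4 controls, with the nearest at 247 and 248 FPKM, and the log2 fold change was -0.25 (SE 0.12, adjusted p = 0.215). In the fit blocked on replicate number the same difference passed (SE 0.07, adjusted p = 0.0133). At 3, 6 and 24 h its log2 fold changes were -0.11, -0.07 and 0.08, with 95% intervals that lay between -0.35 and 0.33. For Runx1 they were -0.12, -0.09, 0.13 and -0.14 over the 4 times, with adjusted p values of 0.283 to 0.587, and the 95% intervals kept within -0.36 and 0.34.

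Cebpb was the only member whose change at 1 h passed without the block. At 1 h its IL-4 samples were at 7.07, 5.73, 6.78 and 5.36 FPKM, against 15.4, 12.8, 17.4 and 12.8 FPKM in the controls. Every IL-4 sample was below every control, and the log2 fold change was -1.11 (SE 0.14, adjusted p = 7.05e-08). At 3 h the IL-4 samples read 7.53, 7.35, 8.63 and 7.16 FPKM and the controls 13.2, 17.9, 18.01 and 15.1 FPKM, again without overlap (log2 fold change -0.97, SE 0.14, adjusted p = 4.03e-07). By 6 h the gap had narrowed to 13.7 ± 1.98 against 19.6 ± 2.58 FPKM (n = 4 each), a log2 fold change of -0.49 (SE 0.14, adjusted p = 0.00428) that did not pass Tukey's adjustment (adjusted p = 0.0967). At 24 h the means were 22.3 ± 1.33 (n = 3) and 22.8 ± 3.17 FPKM (n = 4), the ranges overlapped, and the log2 fold change was -0.02.

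Cebpa went the other way after a short dip. After 1 h of IL-4 it was at 16.8, 16.7, 21.7 and 20.2 FPKM, below controls at 26.9, 24.6, 30.9 and 26.4 FPKM. After 3 h it was at 38.9, 34.3, 46.4 and 45.7 FPKM, above controls at 27.2, 24.8, 27.3 and 30.7 FPKM. These groups did not overlap at either time, in opposite directions.

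After 6 h, Cebpa read 59.1, 55.5, 67.4 and 75.8 FPKM with IL-4 and 26.9, 28.3, 31.4 and 37.8 FPKM without, and the log2 fold change was 1.03 (SE 0.31, adjusted p = 0.00639). After 24 h the 3 IL-4 samples were at 72.4, 80.3 and 85.2 FPKM and the controls at 46.2, 42.5, 47.6 and 54.8 FPKM. The IL-4 samples were above all controls at both times. In the fit without a block only the 6 h change passed. That fit takes 1 estimate of the spread from all groups, and in Stat6KO the replicates of Cebpa stood 2.23-fold apart. The log2 fold changes at 1, 3 and 24 h were -0.51, 0.57 and 0.72 with an SE of 0.31 to 0.33 and adjusted p values of 0.376, 0.183 and 0.0631. With the replicate block the SE was 0.08, and all of them passed (limma adjusted p = 2.31e-06, 1.25e-07 and, for a log2 fold change of 0.70 at 24 h, 4.75e-09). Without a block, the 6 h call was lost when WT replicate 1 or replicate 3 was left out of every group (adjusted p = 0.0517 and 0.056) and under Tukey's adjustment (adjusted p = 0.157).

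Cebpd, the lowest member, fell late. At 24 h it was at 1.09, 1.44 and 1.12 FPKM with IL-4 and at 3.78, 3.28, 2.81 and 2.61 FPKM in controls, without overlap (log2 fold change -0.89, SE 0.19, adjusted p = 0.000183). At 1, 3 and 6 h it did not pass, with log2 fold changes of -0.11, -0.35 and -0.19, although the 3 h groups did not overlap (mean 1.81 FPKM with IL-4 and 2.60 FPKM without). In the same groups at 24 h the summed neutrophil markers were also lower with IL-4, at 226 to 328 against 454 to 631 FPKM, and whether this bears on Cebpd, or on Cebpa at the same time, was not tested. The 3′ end of Cebpd overlaps the locus 2310008H04Rik, which was at 4.77 ± 0.137 FPKM (n = 3) and 5.83 ± 0.340 FPKM (n = 4) in these groups, and reads shared by the pair could be split between them.

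Maf showed the deepest fall of the 9. At 6 h it was at 41.9, 40.4, 41.7 and 47.2 FPKM with IL-4 against 73.1, 66.7, 64.3 and 74.1 FPKM without (log2 fold change -0.69, SE 0.17, adjusted p = 0.00129). At 24 h the IL-4 samples were at 12.6, 14.2 and 14.9 FPKM and the controls at 73.0, 77.5, 68.8 and 70.2 FPKM. The mean ratio was then 0.192, and the log2 fold change was -2.30 (SE 0.19, adjusted p = 5.16e-13). The groups did not overlap at any of the 4 times, and at 1 and 3 h the log2 fold changes were -0.45 and -0.30 (adjusted p = 0.103 and 0.214). With the replicate block the 1 h difference passed (adjusted p = 0.00838).

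Mitf rose only late among the times measured. Its log2 fold changes at 1, 3 and 6 h were 0.12, 0.09 and 0.16, none of which passed. At 24 h it reached 46.1, 45.7 and 44.9 FPKM with IL-4, above controls at 24.0, 28.4, 27.0 and 28.9 FPKM. The log2 fold change was 0.73 (SE 0.20, adjusted p = 0.00214), which did not pass Tukey's adjustment (adjusted p = 0.0776).

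Zeb2 rose modestly and returned. At 3 h it was at 55.6, 65.0, 58.8 and 56.9 FPKM with IL-4 and at 43.4, 42.0, 45.1 and 43.9 FPKM without, and at 6 h at 63.7, 65.8, 56.2 and 54.5 against 50.02, 41.0, 44.0 and 43.0 FPKM. All IL-4 samples were above all controls at both times (log2 fold change 0.43 and 0.42, SE 0.11 each, adjusted p = 0.00151 and 0.00123). At 1 h, with overlapping ranges, the log2 fold change of 0.31 did not pass without the block (adjusted p = 0.055) and did with it (adjusted p = 0.0421), and also without replicate 4 of the controls (0.41, adjusted p = 0.00949). At 24 h it was -0.07. An antisense locus over its start, Gm13476, was at 15.7 ± 1.11 against 15.0 ± 0.949 FPKM at 3 h and at 18.4 ± 0.986 against 15.7 ± 1.2 FPKM at 6 h (n = 4 each). The libraries and the default mapping do not keep strand, so reads of Zeb2 and of this partner cannot be told apart where they overlap.

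Mef2c fell sharply between 1 and 3 h and stood closer to its controls again at 24 h. At 1 h it was at 16.6, 17.96, 15.2 and 18.6 FPKM with IL-4 and at 14.7, 14.7, 17.1 and 18.1 FPKM without, so the groups overlapped (log2 fold change 0.08). At 3 h the IL-4 samples had dropped to 6.59, 7.54, 6.62 and 6.86 FPKM while the controls read 14.9, 14.5, 15.8 and 15.6 FPKM (log2 fold change -1.04, SE 0.13, adjusted p = 4.97e-08). At 6 h they were at 5.60, 6.14, 4.89 and 5.21 FPKM against 16.8, 15.3, 15.4 and 14.7 FPKM. That was a log2 fold change of -1.36 (SE 0.13, adjusted p = 6.24e-11), and the IL-4 and control groups were fully apart at both times. At 24 h the values were 11.7, 8.13 and 7.62 FPKM against 12.6, 15.9, 12.3 and 11.8 FPKM, and the highest IL-4 sample was next to the lowest control. The log2 fold change of -0.49 passed (SE 0.14, adjusted p = 0.00425) but was lost when WT replicate 3 or 4 was left out of every group (adjusted p = 0.0573 and 0.0563) and under Tukey's adjustment (adjusted p = 0.0977).

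Mef2c and Zeb2 both passed first at 3 h, in opposite directions, and upstream sequence of both is shown because the same letters stand in each. STAT dimers bind the arms TTC and GAA, spaced by 3 or 4 bases (written TTCNNNGAA and TTCNNNNGAA), and the core of many PU.1 sites is GAGGAA. RefSeq promoters (GRCm38.p6) were at hand for 6 of the 9 members, 14 windows in all, and each was searched over its 250 bases upstream of the start, with GAGGAA on both strands and with arms that read alike on both. For Mef2c the whole window, chr13:83503784-83504033 on the plus strand, is printed. For Zeb2 a stretch of 29 bases within its window is printed, chr2:45113408-45113436 on the minus strand, which GENCODE M21 places in exons of a noncoding Zeb2 transcript and of the antisense Zeb2os. Capitals mark the STAT arms with their spacer and, in Mef2c, the PU.1 core, and none of the capitalised letters are shared between motifs.
Mef2c: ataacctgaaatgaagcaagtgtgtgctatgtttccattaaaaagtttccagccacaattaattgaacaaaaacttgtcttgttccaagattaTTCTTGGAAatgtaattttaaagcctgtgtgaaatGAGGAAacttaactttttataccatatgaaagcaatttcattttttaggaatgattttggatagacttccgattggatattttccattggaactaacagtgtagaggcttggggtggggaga
Zeb2: agttctccagTTCTGTGAAtggtgtgcac
In Mef2c the STAT letters begin at -157 and the PU.1 core at -122 from the start. In Zeb2 they begin at -147 and -16, the PU.1 core lying outside the stretch printed. Over 32851 promoters of the same length, TTCNNNGAA stood in 7.02%, TTCNNNNGAA in 5.85% and GAGGAA in 23.3%. Of 3 Mef2c windows, 1 held STAT arms and 2 a PU.1 core. Of 4 Zeb2 windows, 3 held STAT arms (2 of them, which overlap, with the 3-base spacer and 1 with the 4-base spacer, sharing letters with a PU.1 core) and 4 a PU.1 core. The windows of Cebpa, Cebpb and Mitf held none of these 3 motifs, and 1 window of Runx1 held a PU.1 core. The matches printed for Mef2c and Zeb2 both have the 3-base spacer. A match is a description of the letters and does not single out STAT6 among the STAT proteins. Binding by STAT6 or any other factor was not measured here.

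In Stat6KO BMDMs, IL-4 moved no member past the threshold at any time. The count was 0 of 9 at each of the 4 times, beside 0.0% of all loci (limma, 0 of 11146 each time). At an unadjusted p under 0.05 there were 51, 131, 88 and 37 loci, and 1, 0, 0 and 0 members. For Cebpb at 1 h, the Stat6KO samples were at 19.2 and 20.5 FPKM with IL-4 and at 17.7 and 15.8 FPKM without. Mef2c at 6 h was at 14.2 and 14.3 FPKM with IL-4 and at 13.99 and 15.2 FPKM without, and Maf at 24 h was at 63.4 and 145 FPKM with IL-4 and at 61.3 and 135 FPKM without. In each case both Stat6KO samples with IL-4 lay above the highest WT sample with IL-4. With 2 samples a group the intervals of the fit without a block were wide. In that fit the 95% interval for Cebpa ran from -0.94 to 0.83 at 1 h, which includes the WT value of -0.51. At 6 h it ran from -0.97 to 0.79, and the WT value of 1.03 lay above it. These Cebpa responses were -0.05 at 1 h and -0.09 at 6 h in both fits. Their SE was 0.43 without the replicate block and 0.11 with it, so the width at 1 h depended on the block.

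The difference between the WT and the Stat6KO response was tested as an interaction. It passed for Cebpb at 1 h (1 of 9 members, 3.36% of loci), with a difference of -1.34 in log2 fold change (SE 0.24, adjusted p = 0.000198). At 3 h it passed for 3 members, against 11.2% of loci: Cebpb (-1.03, adjusted p = 0.00221), Mef2c (-0.98, adjusted p = 0.00251) and Zeb2 (0.59, adjusted p = 0.0287, and 0.0567 after quantile normalization). At 6 h it passed for Mef2c alone (-1.33, SE 0.23, adjusted p = 3.69e-05, against 16.5% of loci) and at 24 h for Maf alone (-2.38, SE 0.31, adjusted p = 1.9e-07, against 27.0% of loci). The Zeb2 difference was lost when certain single libraries were left out and held without any of the others. The adjusted p was 0.241 without replicate 2 of the Stat6KO 3 h IL-4 group and 0.13 and 0.0544 without replicate 1 or 2 of the Stat6KO 3 h controls. Without replicate 2 of the WT 3 h IL-4 group it was 0.0592. The Zeb2 difference was lost too when certain replicates were left out throughout, at 0.202 for Stat6KO replicate 2 and 0.0882 and 0.0542 for WT replicates 3 and 4. With the replicate block, Cebpa passed too at 1, 3, 6 and 24 h (differences of -0.46, 0.68, 1.12 and 0.85, adjusted p = 0.0246, 0.000161, 1.97e-08 and 5e-06). Also passing with the block were Maf at 6 h (-0.74, adjusted p = 0.00798) and, at 24 h, Cebpd (-0.78, adjusted p = 0.0162) and Mitf (0.69, adjusted p = 6.48e-05). The counts with the block were then 2, 4, 3 and 4 members, against 7.55%, 21.4%, 30.2% and 45.0% of loci. For the WT responses themselves the block gave 5 members at 1 h (17.1% of loci), 4 at 3 h (41.1%) and 5 at 24 h (66.2%).

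Untreated Stat6KO and WT BMDMs did not differ in any member past the threshold. The counts were 0 of 9 at 0, 1, 3, 6 and 24 h, where 2.18%, 1.54%, 0.772%, 0.413% and 0.108% of loci passed, and at an unadjusted p under 0.05 they were 1, 0, 1, 0 and 1. Maf had the steadiest offset, with log2 fold changes of 0.44, 0.38, 0.49, 0.37 and 0.33 in Stat6KO (adjusted p from 0.329 to 1). At 0 h its Stat6KO samples were at 83.9 and 101 FPKM and its WT samples at 50.1 to 82.7 FPKM. Both Stat6KO samples of Maf were above all WT controls at 0, 1, 3 and 6 h, and the ranges overlapped at 24 h. For Cebpb at 24 h, Stat6KO controls at 19.2 and 12.6 FPKM lay below WT controls at 19.7 to 27.2 FPKM (log2 fold change -0.51, SE 0.17, adjusted p = 0.422).

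The 2 Stat6KO replicates differed from each other in the same direction across groups for 4 members. Such offsets were not particular to these members. Over all tested loci, deviations from the group means correlated at a mean of 0.714 over 72 same-number Stat6KO pairs. The share of all loci that kept their order in every group was not counted. Cebpa was higher in replicate 1 in 9 of 9 groups, at 40.2 to 64.2 FPKM against 14.8 to 33.6 FPKM in replicate 2, a median ratio of 2.23. Mitf was higher in replicate 1 in 9 of 9 groups as well (23.5 to 32.0 against 14.5 to 19.2 FPKM, median ratio 1.65). Spi1 and Maf were lower in replicate 1 in 9 of 9 groups, with median ratios of 0.757 and 0.813. The genotype difference depended on the replicate for several members. With replicate 1 left out of every Stat6KO group, 1 sample a group remained. Only log2 fold changes against WT controls are therefore given, for the comparisons whose call changed. For Cebpa they were -0.64, -0.60 and -0.70 at 0, 3 and 6 h, where both replicates gave 0.00 at 3 h. For Maf they were 0.57, 0.57, 0.60 and 0.89 at 0, 3, 6 and 24 h, its 24 h controls being at 61.3 and 135 FPKM. Mitf was at -0.49 at 6 h and -0.57 at 24 h. At 24 h Cebpb was at -0.80 and Cebpd at 0.78. With replicate 2 left out instead, Mitf was at 0.52 at 1 h. Whether these replicates differ by animal, culture or library was not stated.

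**Figure D3:**
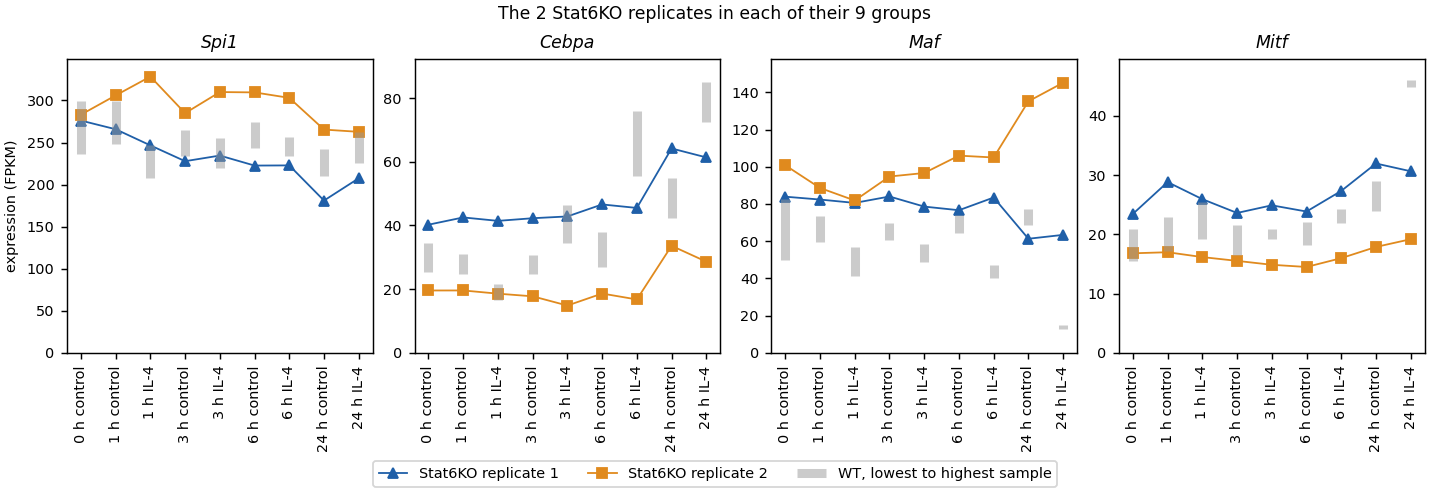
Expression (y axis, FPKM, from 0) of Spi1, Cebpa, Maf and Mitf in Stat6KO replicate 1 (triangles) and replicate 2 (squares) across the 9 groups (x axis, time and treatment), with grey bars from the lowest to the highest WT sample of the same group. The 2 replicates keep their order in all 9 groups, with Cebpa at 40.2 to 64.2 FPKM in replicate 1 and 14.8 to 33.6 FPKM in replicate 2.

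The number of members that moved with time in culture alone depended on the replicate block. Against 0 h, WT controls had 0 members past the threshold at 1, 3 and 6 h (2.0%, 0.144% and 0.135% of loci) and 1 at 24 h (17.2% of loci). That member was Cebpb, at 27.2, 22.3, 19.7 and 22.0 FPKM at 24 h and 18.5, 13.9, 15.6 and 13.0 FPKM at 0 h. The ranges did not overlap, and the log2 fold change was 0.55 (SE 0.14, adjusted p = 0.00457), lost when WT replicate 2 or 4 was left out of every group (adjusted p = 0.0516 and 0.0544). With the replicate block 4 members passed at 24 h (37.1% of loci), adding Cebpa (0.60, adjusted p = 1.07e-07), Mitf (0.46, adjusted p = 5.38e-06) and Spi1 (-0.21, adjusted p = 0.0225). At 1 h the block added Cebpd (-0.52, adjusted p = 0.0275, against 6.48% of loci). In Stat6KO controls 0 members passed at 24 h (0.718% of loci) and 2 did with the block (16.8%), Cebpa at 0.71 (adjusted p = 1.39e-05) and Spi1 at -0.35 (adjusted p = 0.0169). For Cebpa and Mitf, WT controls at 24 h lay above all WT controls at 0 h, and WT IL-4 samples lay above those 24 h controls.

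The course of the WT response differed between times for some members. From 1 to 3 h the response of Mef2c changed by -1.12 on the log2 scale (SE 0.19, adjusted p = 4.23e-05), the only member of 9 to pass, against 11.1% of loci. From 3 to 6 h no member passed (3.31% of loci). From 6 to 24 h 4 members passed (27.8% of loci): the response of Maf changed by -1.61 (SE 0.25, adjusted p = 4.55e-06), that of Mef2c by 0.87 (SE 0.20, adjusted p = 0.000719), that of Zeb2 by -0.49 (SE 0.16, adjusted p = 0.016) and that of Cebpd by -0.69 (SE 0.26, adjusted p = 0.0439). The Cebpd change was lost when any of 9 of its 15 single libraries or any WT replicate throughout was left out (adjusted p = 0.0531 to 0.3), and that of Zeb2 when WT replicate 2, 3 or 4 was left out throughout (adjusted p = 0.0595, 0.0817 and 0.0721). With the block the counts were 2, 1 and 7 members, against 22.2%, 11.8% and 44.1% of loci. Those gained were Cebpa in each interval (1.08, 0.46 and -0.33) and Cebpb (0.48) and Mitf (0.54) from 6 to 24 h.

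Because paralogs of a family bind like sites, the share of Cebpa, Mef2c and Mitf in the FPKM summed over a few named relatives was computed per sample, a measure chosen after the values had been seen. In WT, Cebpa made up 59.6% of Cebpa, Cebpb and Cebpd in controls at 3 h and 81.2% with IL-4, and 58.0% and 79.9% at 6 h. The sum of these 3 genes was 46.1 and 50.8 FPKM at 3 h and 53.6 and 80.6 FPKM at 6 h in the same order. At 1 h the share was 62.5% and 70.5%, while the sum was 43.7 FPKM in controls and 26.7 FPKM with IL-4. The control and IL-4 groups did not overlap at 1, 3 or 6 h (exact permutation tests, two-sided, p = 0.0286 each, the smallest that 4 against 4 samples can give, 0.049 after Benjamini-Hochberg adjustment over 12 comparisons in 3 families). The shares were chosen after these same samples were seen. These p values, and those for Mef2c and Mitf below, therefore only describe how far the groups overlapped and are no separate support for the gene results. The share depends on which genes are summed. With Cebpe, Cebpg and Ddit3 added, an alternative chosen after seeing the data, Cebpa made up 26.9% in controls and 24.1% with IL-4 at 1 h, where the groups now overlapped and the direction of the means turned. In that sum of 6 genes it made up 26.1% and 37.8% at 3 h and 28.3% and 43.1% at 6 h, without overlap, and 37.2% and 45.0% at 24 h, with overlap.

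Mitf fell from 16.6% to 10.4% of Mitf, Tfe3, Tfeb and Tfec at 3 h while its own level did not pass, with Tfec going from 17.3 ± 4.49 to 116 ± 9.25 FPKM (log2 fold change 2.70, SE 0.32, adjusted p = 7.08e-09). At 24 h its share was 26.3% with IL-4 and 20.9% without. Mef2c fell from 27.3% to 13.8% of Mef2a, Mef2c and Mef2d at 6 h. At 3 and 6 h none of these shares overlapped between groups (exact permutation p = 0.0286 each), and at 24 h, where 3 against 4 samples cannot give less than 0.0571, they did not overlap either. At 1 h the groups overlapped for Mef2c and Mitf (exact permutation p = 0.9429 and 0.0857).

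**Figure D4:**
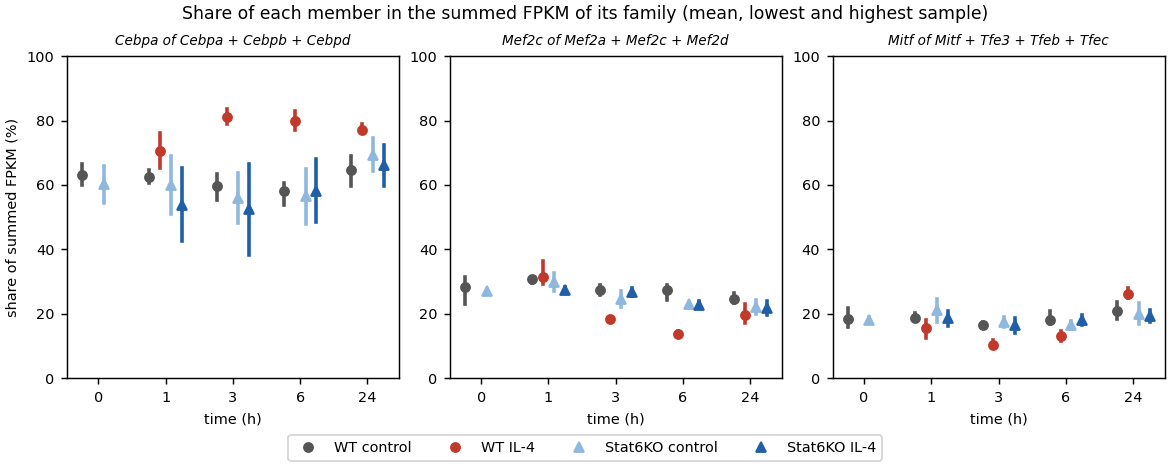
Share of Cebpa in Cebpa, Cebpb and Cebpd, of Mef2c in Mef2a, Mef2c and Mef2d and of Mitf in Mitf, Tfe3, Tfeb and Tfec, by FPKM (y axis, %, from 0 to 100) against time (x axis, h, evenly spaced), with symbols at the group mean and lines from the lowest to the highest sample, WT as circles and Stat6KO as triangles. WT IL-4 circles lie above their controls for Cebpa at 3 h (81.2% and 59.6%) and below them for Mef2c at 6 h (13.8% and 27.3%), and Stat6KO control and IL-4 ranges overlap at all 4 times in each panel.

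Wider lists of related genes were mixed in direction. Of 26 close relatives of the members 23 were tested, and in WT 2 rose and 3 fell at 1 h, 5 and 5 at 3 h, 5 and 4 at 6 h and 5 and 4 at 24 h. Over all loci 5.67%, 16.4%, 22.0% and 23.4% passed as higher at these times and 3.72%, 12.5%, 19.2% and 31.6% as lower. The list medians were 0.01, -0.03, 0.03 and 0.06 beside -0.016, 0.009, 0.00 and -0.069 over all loci. At least 2-fold on the log2(FPKM + 1) scale among them were Tfec at 1 and 3 h, Tfec and Ets1 at 6 h (Ets1 from 2.20 ± 0.282 to 6.77 ± 0.517 FPKM, log2 fold change 1.28) and none at 24 h. At 24 h Ets1 was at 3.76 FPKM with IL-4 and 1.57 FPKM without (log2 fold change 0.88) and Fli1 at 12.9 and 26.4 FPKM (log2 fold change -0.97), just under that limit. Maff, a small MAF protein without a transactivation domain, moved opposite to Maf at 6 and 24 h (0.93 and 0.69). Of 19 cofactors and antagonists 12 were tested. Trib1, a pseudokinase that directs C/EBPα protein to degradation, rose from 4.22 ± 0.771 to 26.2 ± 4.09 FPKM at 1 h (log2 fold change 2.38, SE 0.24, adjusted p = 5.22e-10) and no longer passed at 3 h (0.48, adjusted p = 0.138). Among the ID proteins, inhibitors of helix-loop-helix factors, Id1 rose at 1 h from 0.416 to 4.11 FPKM (1.83), Id3 fell at all 4 times from levels under 3 FPKM (-1.15 to -1.66), and Id2 fell at 1 h (-1.45) and rose at 24 h (1.25).

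Of 23 textbook targets of the members 22 were tested. In WT 2 rose and 0 fell at 1 h, 2 and 4 at 3 h, 4 and 5 at 6 h and 5 and 10 at 24 h, where 23.4% of all loci passed as higher and 31.6% as lower. The shares of all loci at 1, 3 and 6 h are those given above for the relatives. The medians of the list were -0.12, -0.12, -0.09 and -0.17, beside -0.016, 0.009, 0.00 and -0.069 over all loci. Among 10 genes known as PU.1 and C/EBP targets 1 rose and 6 fell at 24 h, with falls in Cd14, the LPS co-receptor (286 ± 53.1 to 18.4 ± 4.62 FPKM, log2 fold change -3.89), and in the inflammatory cytokine gene Il1b (32.9 ± 12.3 to 0.575 ± 0.250 FPKM, log2 fold change -4.37). All 4 genes known as MAF targets, Il10, C1qa, C1qb and C1qc, fell at 24 h (-0.70, -1.16, -0.61 and -0.83), the time when Maf itself was lowest, and Il10 had risen at 3 and 6 h (0.88 and 0.71). Of 8 tested genes known as MITF targets, 4 rose and 0 fell at 24 h, namely Ctsk, Dcstamp, Ocstamp and the proton pump subunit Atp6v0d2. Ocstamp, needed for cell fusion in osteoclasts and giant cells, went from 0.105 ± 0.0242 to 68.8 ± 30.6 FPKM (log2 fold change 5.90, SE 0.16, adjusted p = 3.11e-28). Atp6v0d2 went from 35.6 ± 18.2 to 407 ± 14.6 FPKM (log2 fold change 3.59, SE 0.72, adjusted p = 6.77e-05). At 6 h, before Mitf passed, Atp6v0d2 was already higher (log2 fold change 1.93, adjusted p = 0.0186). Not all of this list rose: at 3 h 0 genes rose and 1, Clcn7, fell. At 6 h 2 rose and 1 fell, among Ocstamp, Atp6v0d2 and Clcn7. The G-CSF receptor gene Csf3r was at least 2-fold higher at 3 and 6 h (1.2 and 1.59), and the LPS receptor gene Tlr4 at 1 h (1.22). These lists were tested gene by gene only, and no link between a factor and a target was measured.

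Across the 18 group means of log2(FPKM + 1), the genes most like each member were found among 8354 loci that reached 5 FPKM in at least 1 group. For Maf they were Il10ra (Pearson r = 0.987) and Limd2 (0.973), for Mef2c Ptpn22 (0.974) and Ptk2b (0.971), and for Mitf Mmp12 (0.953) and Sh3kbp1 (0.952). Cebpa was closest to Lpin1 (0.944) and Malsu1 (0.942), Spi1 to Sphk2 (0.945) and Smg9 (0.911), Cebpd to Tor4a (0.934) and Slc25a45 (0.923), Cebpb to Tgif1 (0.91) and Fos (0.891), and Zeb2 to Slc4a7 (0.883) and Pla2g15 (0.88). Runx1 had the lowest such values of the 9, Anapc16 (0.764) and Per1 (0.718). Il10ra had its lowest group mean, 31.6 FPKM, in the same group as Maf, WT with 24 h of IL-4, and Ptpn22 had its lowest, 13.2 FPKM, in WT with 6 h of IL-4, as did Mef2c. Between members the strongest relations were those of Cebpd with Maf (r = 0.81), Cebpa with Mitf (0.77), Cebpa with Mef2c (-0.77) and Maf with Mitf (-0.75). The points share libraries and replicate numbers, and these values are a description.

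In genomic position the 9 members lie apart from one another (mm10, as listed in the deposited tables). Chromosome 2 holds Spi1 at chr2:91096797-91115756 and Cebpb at chr2:167688915-167690418 on the plus strand and Zeb2 at chr2:44983634-45113279 on the minus strand. Chromosome 16 holds Cebpd at chr16:15887286-15889545 on the plus strand and Runx1 at chr16:92601466-92826066 on the minus strand. Cebpa is at chr7:35119293-35121931, Mitf at chr6:97807058-98021358, Mef2c at chr13:83504034-83667079 (all on the plus strand) and Maf at chr8:115703253-115706894 (minus strand). GENCODE M21 lists all 9 as protein-coding.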

How the data were processed

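Polyadenylated RNA of 53 BMDM samples was sequenced. The authors mapped reads to mm10 with TopHat and deposited 1 FPKM table per sample from Cufflinks, at default settings. The submitters' processing notes name TopHat2 2.0.7 and Cufflinks 2.0.2, and the annotation is not given in the sources used here. The library kit named does not mark strand. FPKM is scaled within a sample, so a shift in a few abundant genes moves all others, and it is not a count. Samples were grouped by genotype, treatment and time from the labels.

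Tables were joined on locus and symbol, 5654 values below 0.0001 FPKM were set to 0, and no libraries held identical values. The 11146 loci that reached 1 FPKM in some sample were tested as log2(FPKM + 1) with limma 3.58.1 in R 4.3.3, with 1 mean per group over all 53 samples, an intensity trend and 35 residual degrees of freedom, in two-sided tests adjusted by Benjamini-Hochberg within each comparison. Fits were tested on simulated data before use. The simulated samples were drawn independently, without a replicate effect. That test therefore could not show how the fit without a block fares when samples of the same replicate number correlate. Relative depth was estimated from 7628 low loci, and absolute depth is unknown.

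Groups of a genotype share replicate numbers. The study describes its WT data as 4 individual animals, but that a number marks 1 animal is not stated. Deviations from the group means correlated at a mean of 0.223 over 136 same-number WT pairs (lowest -0.145, 111 above 0.1) and at 0.714 over 72 Stat6KO pairs (all above 0.1), so the block was fitted as well (31 residual degrees of freedom, and for genotype comparisons as a random effect with a correlation of 0.366). Where nothing says that samples came from separate animals, p-values measure the spread between these samples only.

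The members and lists were chosen with earlier results of these data known. Named genes are all 9 members, Stat6, and of each list at each WT time the 2 largest increases and 2 largest decreases among genes that passed and changed at least 2-fold, list genes that moved opposite to their closest member, and per member the 2 loci most like it. Other genes named in counts of targets were chosen after their values were seen. Alternatives were a pseudocount of 0.1, no filter, quantile normalization, median scaling, only the samples compared, the block, Tukey's adjustment and leaving out libraries or replicates. Of 26 relatives, 19 cofactors and 23 targets, 23, 12 and 22 passed the filter. A further gene of the relatives list is not reported here.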

Additional observations from a re-analysis of the deposited data

Results flagged for a closer look

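In the fit without a replicate block, the response of 4 members differed between genotypes by a test of the difference itself, among 36 such tests of members (limma interaction, Benjamini-Hochberg adjustment over 11146 loci). For Cebpb, the WT minus the Stat6KO log2 fold change was -1.34 at 1 h (adjusted p = 0.000198) and -1.03 at 3 h (adjusted p = 0.00221). For Mef2c it was -0.98 at 3 h (adjusted p = 0.00251) and -1.33 at 6 h (adjusted p = 3.69e-05), and for Maf -2.38 at 24 h (adjusted p = 1.9e-07). For Zeb2 it was 0.59 at 3 h (adjusted p = 0.0287), a call lost under 8 alternatives (adjusted p = 0.0542 to 0.241), 1 of them quantile normalization and the others leaving out libraries. With the replicate block, the difference also passed for Cebpa at 1, 3, 6 and 24 h, for Maf at 6 h and for Cebpd and Mitf at 24 h.

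Single samples stood far from the others of their group in 3 of 72 sets of 4 WT samples, where chance gives about 1 in 20, or 3.6 sets. Spi1 was at 233.9 FPKM in replicate 4 of the 3 h controls against 260.6 to 264.3 FPKM in the others. Maf was at 58.4 FPKM in replicate 4 of the 3 h IL-4 group against 48.8 to 49.7 FPKM. Mitf was at 15.6 FPKM in replicate 1 of the 0 h controls against 20.7 to 20.9 FPKM.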

How the results depend on the processing

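Counts below are members that passed, out of 9, and settings were changed 1 at a time. The share of all loci that passed was counted only for the main fit and for the block. Under the other settings the counts of members therefore have no share beside them and are a description only. With the replicate block, which lost no call of a member, the WT response at 1 h had 5 in place of 1. The difference of responses had 2, 3 and 4 at 1, 6 and 24 h in place of 1 each, WT controls 1 and 4 at 1 and 24 h against 0 h in place of 0 and 1, Stat6KO controls at 24 h 2 in place of 0, and the changes of response 2, 1 and 7 in place of 1, 0 and 4. Fitting only the samples compared gave 3 and 6 for WT at 1 and 3 h (in place of 1 and 3), 2 for the difference at 6 h, 3 for WT controls at 24 h, and 2, 2 and 7 for the changes of response. Quantile normalization gave 2 for the difference at 3 h in place of 3 (Zeb2, adjusted p = 0.0567), and from 6 to 24 h it lost the changes of Cebpd (0.087) and Zeb2 (0.0713) and gained that of Cebpb (0.0488), for 3 in place of 4. That change of Cebpd was also lost with no filter (0.0695) and under median scaling (0.079), which gained Cebpb (0.0462). Median scaling gave 2 for WT at 1 h and 2 for WT controls at 24 h, a pseudocount of 0.1 gave 2 for the difference at 24 h, and Tukey's adjustment gave 3 for WT at 6 h and 2 at 24 h (in place of 5 and 4). The cause of these shifts was not tested. Leaving out 1 library, or 1 replicate throughout, gave 1 to 2, 3 to 3, 4 to 5 and 3 to 4 for the WT responses and 0 to 0 for Stat6KO. It gave 1 to 1, 2 to 4, 1 to 3 and 1 to 4 for the differences, 0 to 2, 0 to 1, 0 to 2, 0 to 3 and 0 to 4 for the genotypes, 0 to 1 for WT and 0 to 2 for Stat6KO controls at 24 h, and 1 to 1, 0 to 0 and 2 to 4 for the changes of response. The genotype counts above 0 came from leaving out a replicate of Stat6KO. Alternatives, most often leaving out libraries, also turned the sign of values that did not pass, and of the values of members that turned only Cebpa in Stat6KO against WT controls at 3 h then passed, at -0.60 without Stat6KO replicate 1. With 2 Stat6KO samples a group, and relative depth from 0.707 to 1.554, small responses in Stat6KO could not be resolved.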
